A study of Mus musculus with 18 samples.

Results

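The genes followed here are 36 transcripts that mark the macrophages of the brain: 28 of parenchymal microglia and 8 of the macrophages at the brain's borders (*Mrc1*, *Lyve1*, *Stab1*, *Cd163*, *Cd209f*, *Pf4*, *F13a1* and *Ms4a7*). They were chosen by name, with earlier results of these data known. All 36 were found among the 23038 gene symbols with counts in E18.5 mouse cortex, 1 of them, *Spi1*, under its older symbol *Sfpi1*. The microglia genes and the border macrophage genes were described apart.

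Microglia are the resident macrophages of the brain parenchyma. They derive from yolk sac progenitors that enter the embryonic brain, depend on the receptor CSF1R for survival, and prune synapses and clear dying cells. Border macrophages occupy the meninges, the perivascular spaces and the choroid plexus, where they take up debris, haemoglobin and hyaluronan through scavenger receptors. Both are a small share of the cells in cortex. NOVA1 and NOVA2 are RNA binding proteins mainly of neurons, where they regulate alternative splicing.

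Cortex RNA was sequenced from 12 embryos of the CD1 background at E18.5, with 3 biological replicates in each of 4 groups. The groups were *Nova2-/-* mice with wild-type littermates (wild-type replicates 1 to 3) and *Nova1-/-* mice with wild-type littermates (wild-type replicates 4 to 6). In the *Nova2-/-* allele an *IRES-Cre* cassette took the place of the first coding exon, and the selection cassette had been removed with Flp recombinase, so that *Nova2-/-* mice, unlike their wild-type littermates, carried a Cre gene. Both knockouts lack the gene in every cell of the embryo, and the dissected cortex was not sorted, so any meninges and vessels left on it were sequenced with it.

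Total counts per mouse lay between 16518172 and 31362018, with wild-type replicate 2 of the *Nova2* litters the lowest. That library had a count for 21791 genes, against 18397 to 19396 genes in the other 11 mice. *Nova1* had 0.119 ± 0.0889 CPM (counts scaled to the size of the TMM-adjusted library; SD, n = 3) in *Nova1-/-* cortex and 62.8 ± 18.7 CPM in wild-type littermates. *Nova2*, of which only the first coding exon is replaced, had 18.8 ± 2.42 CPM in *Nova2-/-* cortex and 34.7 ± 5.34 CPM in wild-type littermates. Cortical identity was carried by 10 neuronal genes that summed to between 4913 and 6076 CPM. The 36 macrophage genes are few reads beside this: the 28 microglia genes together had between 141 and 186 CPM in a mouse and the 8 border macrophage genes between 50.8 and 179 CPM.

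Levels of different genes were compared per length of exon, as CPM per kilobase. In wild-type cortex of the *Nova2* litters the highest of the 36 was *Tyrobp*, the signalling adaptor of TREM2, at 10.1 CPM per kb, followed by *C1qa* at 6.47, a chain of the complement protein C1q. The highest border macrophage gene in the same mice was *Mrc1*, the mannose receptor, at 4.69 CPM per kb. The lowest members were *P2ry13*, a receptor for adenine nucleotides, at 0.0441 CPM per kb and *Cd209f* at 0.0826. The median level was 1.97 CPM per kb over the 28 microglia genes and 2.04 CPM per kb over the 8 border macrophage genes in these mice. In *Nova2-/-* cortex the same medians were 2.29 and 4.61 CPM per kb. In wild-type cortex of the *Nova1* litters they were 2.86 and 3.84 CPM per kb, and in *Nova1-/-* cortex 2.55 and 3.48. The microglia genes and the border macrophage genes thus both had their lowest median level in the wild-type littermates of *Nova2-/-* mice.

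**Figure D1:**
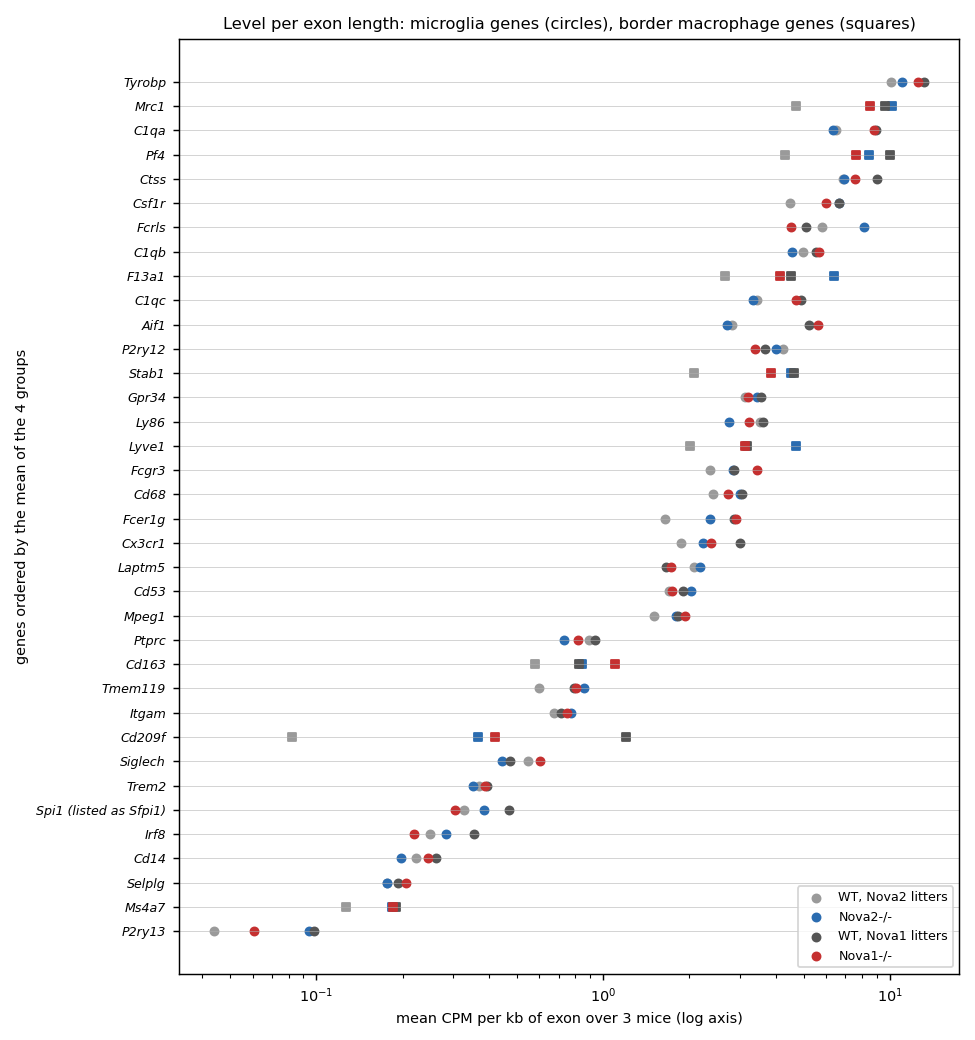
Mean CPM per kb of exon over 3 mice (log axis) of each of the 36 genes, ordered by the mean of the 4 groups, with microglia genes as circles and border macrophage genes as squares and the groups in colour. *Tyrobp* and *Mrc1* stand at the top and *P2ry13* at the bottom, and the lighter grey squares (wild-type mice of the *Nova2* litters) lie to the left of the other groups for all 8 border macrophage genes.

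The DNA upstream of the border macrophage genes was read from RefSeq's promoter sequences on GRCm38.p6, which held 7 of the 8 border macrophage genes and 20 of the 28 microglia genes. The windows were searched on both strands, in the 250 bases before each transcription start, for GAGGAA, the core of the site that PU.1 (the product of *Spi1*, a factor required for macrophage identity) is known to bind. It was present for 4 of 7 border macrophage genes and 13 of 20 microglia genes. By windows, of which a gene may have more than 1, it was in 44.4% of the 9 border macrophage windows and 60.9% of the 23 microglia windows, against 23.3% of all 32851 windows. The longer form GAGGAAGT, which contains the shorter one, was in 6.25% of the 32 windows of all members and in 2.44% of all windows. The windows of the 4 border macrophage genes with a match are printed because these genes are followed mouse by mouse below, and that of *C1qb* as one of a microglia gene. *Mrc1* itself spans chr2:14229414-14332023, *Stab1* chr14:31139017-31168651, *F13a1* chr13:36867178-37050244 and *Pf4* chr5:90772435-90773383, and each window is the sequence before a transcript start, that of *Stab1* overlapping the gene's span by a few bases. They lie at chr2:14229164-14229413 (plus strand), chr14:31168642-31168891 (minus), chr13:37050245-37050494 (minus), chr5:90772185-90772434 (plus) and chr4:136886201-136886450 (minus). Each is written 5′ to 3′ on the gene's strand, with matches in capitals, as GAGGAA or, for a match on the other strand, TTCCTC.
Mrc1: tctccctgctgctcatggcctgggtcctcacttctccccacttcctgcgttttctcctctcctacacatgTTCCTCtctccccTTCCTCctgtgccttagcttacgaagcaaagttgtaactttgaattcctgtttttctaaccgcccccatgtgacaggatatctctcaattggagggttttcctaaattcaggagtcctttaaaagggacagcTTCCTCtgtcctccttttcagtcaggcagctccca
Stab1: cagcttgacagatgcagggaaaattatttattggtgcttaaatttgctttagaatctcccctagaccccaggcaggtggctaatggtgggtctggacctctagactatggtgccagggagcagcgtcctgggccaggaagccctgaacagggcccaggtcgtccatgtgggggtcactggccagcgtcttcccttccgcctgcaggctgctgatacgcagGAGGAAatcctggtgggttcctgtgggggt
F13a1: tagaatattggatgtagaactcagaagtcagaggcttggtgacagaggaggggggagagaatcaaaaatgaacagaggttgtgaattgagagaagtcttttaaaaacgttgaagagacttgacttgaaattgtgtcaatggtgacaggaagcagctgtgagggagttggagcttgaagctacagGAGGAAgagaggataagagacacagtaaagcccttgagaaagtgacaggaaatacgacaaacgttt
Pf4: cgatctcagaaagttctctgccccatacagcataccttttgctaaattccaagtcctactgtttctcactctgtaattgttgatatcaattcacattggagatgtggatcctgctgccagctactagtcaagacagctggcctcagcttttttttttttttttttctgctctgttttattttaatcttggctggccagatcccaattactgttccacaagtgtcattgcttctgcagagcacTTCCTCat
C1qb: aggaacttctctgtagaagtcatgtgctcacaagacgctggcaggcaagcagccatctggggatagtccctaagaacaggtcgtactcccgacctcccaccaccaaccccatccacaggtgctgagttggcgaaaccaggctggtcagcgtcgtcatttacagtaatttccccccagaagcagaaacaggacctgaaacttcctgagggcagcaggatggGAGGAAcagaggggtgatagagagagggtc
*Mrc1* had 3 matches, all on the other strand, and the other 4 windows had 1 each. A match is a run of letters and not a measured binding site.

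The first comparison asked whether border macrophage transcripts differed between *Nova2-/-* cortex and wild-type littermates. The log2 fold change was above 0 for all 8 genes, with a median of 1.12 and a range from 0.53 to 2.41, beside a median of 0.01 over all 15691 genes tested. Genes were tested with edgeR's quasi-likelihood method, and the edgeR FDR is its p-value adjusted over all genes tested (Benjamini-Hochberg). Of the 8, *Stab1* passed both thresholds used for a call (FDR under 0.05, fold change of 2 or more either way), as did 0.261% of all genes tested. It was also the single gene of the 8 below an FDR of 0.05 at any fold, beside 1.06% of all genes. At an unadjusted p below 0.05 there were 6 of the 8, all higher in *Nova2-/-* cortex, beside 19.2% of all genes. With at least 10 counts required in every mouse there were 5. In bulk tissue, more or fewer cells of a type cannot be told apart from more or less RNA per cell, and this holds for every level given here.

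Of the scavenger and uptake receptors, *Stab1* (stabilin-1) had 15.9, 20.2 and 27.7 CPM in the wild-type littermates and 42.7, 41.5 and 54.8 CPM in the *Nova2-/-* mice. The groups did not overlap, and wild-type replicate 3 was the nearest to the knockouts. The log2 fold change was 1.13 ± 0.20 (SE), a 2.19-fold difference (edgeR FDR = 0.0474). *Stab1* overlaps *Nt5dc2* on chromosome 14, and the counting of strands was not stated. *Mrc1* had 17.7, 20.9 and 45.1 CPM in wild-type littermates and 64.5, 63.5 and 52.8 CPM in *Nova2-/-* mice. Here wild-type replicate 3 stood far above the other 2 wild-type mice and still below every knockout. The log2 fold change of *Mrc1* was 1.11 ± 0.31 (edgeR FDR = 0.123). *Lyve1*, a hyaluronan receptor also made by lymphatic endothelium, had 2.65, 5.18 and 7.84 CPM in wild-type littermates and 12.2, 13.6 and 11 CPM in *Nova2-/-* mice. The groups did not overlap, and the log2 fold change was 1.23 ± 0.33 (edgeR FDR = 0.109).

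*Cd163*, the receptor for haemoglobin bound to haptoglobin, had 1.31, 2.35 and 4.15 CPM in wild-type littermates and 4.0, 4.52 and 2.88 CPM in *Nova2-/-* mice. Wild-type replicate 3 lay within the range of the knockouts, so the groups overlapped, and the log2 fold change was 0.54 ± 0.39 (edgeR FDR = 0.494). *Cd209f*, a C-type lectin with close relatives whose reads it may share, had 2, 5 and 0 counts in wild-type littermates and 13, 12 and 13 counts in *Nova2-/-* mice. No wild-type mouse reached the knockouts, but these are very few reads, and the log2 fold change of 2.41 ± 0.81 had an edgeR FDR of 0.162.

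Among the secreted products, *F13a1*, the catalytic subunit of coagulation factor XIII, had 11.3, 18.3 and 22.0 CPM in wild-type littermates and 48.2, 44.2 and 31.2 CPM in *Nova2-/-* mice. The groups did not overlap, although *Nova2-/-* replicate 3 was well below the other 2 knockouts. The log2 fold change was 1.27 ± 0.25 and the edgeR FDR 0.0587, just above the threshold. *Pf4*, a chemokine also made by platelets, had 1.58, 2.47 and 3.52 CPM in wild-type littermates and 5.65, 4.57 and 4.66 CPM in *Nova2-/-* mice. These groups were also apart, with a log2 fold change of 0.97 ± 0.29 (edgeR FDR = 0.134). *Ms4a7*, a membrane protein of the MS4A family, had 0.317, 0.603 and 0.770 CPM in wild-type littermates and 0.889, 0.896 and 0.666 CPM in *Nova2-/-* mice. The groups overlapped, and the log2 fold change was 0.53 ± 0.41 (edgeR FDR = 0.517). In all, 6 of the 8 genes had every *Nova2-/-* mouse above every wild-type littermate and none had the reverse, beside 12.4% and 14% of all genes tested. *Cd209f*, which is among these 6, passed the filter on low counts through the *Nova2-/-* mice alone.

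The count rested on single mice. Without wild-type replicate 3, 5 of the 8 genes passed both thresholds, where the calls over all genes also rose, from 41 to 254, and the log2 fold change of *Mrc1* was 1.67. Without any other single mouse (wild-type replicate 1 or 2, or *Nova2-/-* replicate 1, 2 or 3) 0 of the 8 did by the same edgeR test. In each of those fits 6 of the 8 were at an unadjusted p below 0.05, and the edgeR FDR for *Stab1* was between 0.105 and 0.174. How many of all genes were at that unadjusted p was not counted in these fits. Nor was it counted in any other fit with a mouse left out, or under any other setting, given here.

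**Figure D2:**
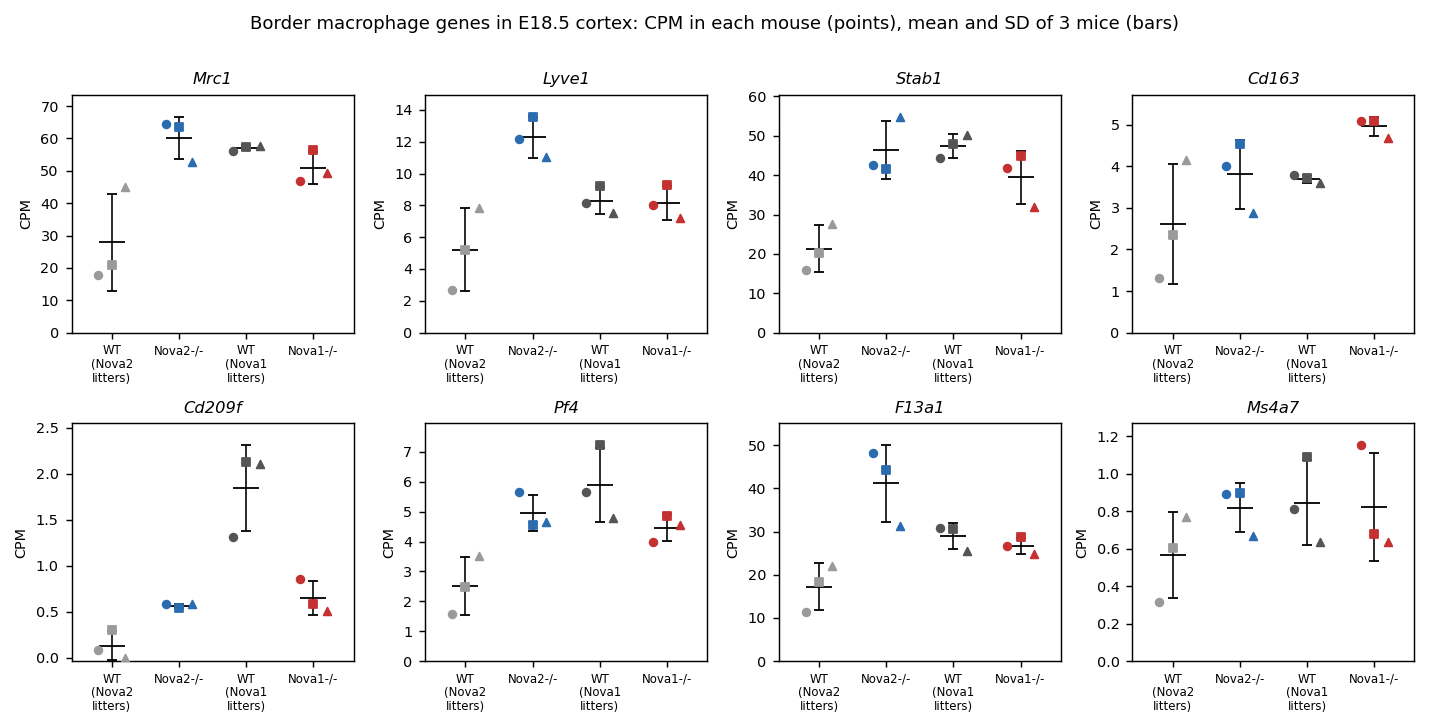
CPM of the 8 border macrophage genes in each mouse (points; circle, square and triangle are the replicates in the order of their numbers), with the mean and SD of 3 mice (bars), in the 4 groups. Wild-type mice of the *Nova2* litters have the lowest mean for every gene, and *Cd209f* is the one gene in which wild-type mice of the *Nova1* litters lie well above both knockouts.

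Among *Nova1-/-* mice and their littermates, none of the 8 genes passed both thresholds or an FDR of 0.05 by edgeR, beside 0.0126% of all 15901 genes tested at either rule. DESeq2 also called 0, and edgeR's exact test called *Cd209f*. At an unadjusted p below 0.05 there were 5 of the 8, with 4 lower and 1 higher, beside 7.44% of all genes. That count was 1 with all 12 mice in 1 model, 2 or 3 without wild-type replicate 4, 5 or 6 or *Nova1-/-* replicate 1 or 3, and 5 without *Nova1-/-* replicate 2. For these fits the share over all genes was again not counted. The median log2 fold change was -0.14 (range -1.50 to 0.42), beside 0.00181 over all genes tested. *Cd209f* had 37, 51 and 66 counts in the wild-type littermates and 23, 17 and 12 counts in the *Nova1-/-* mice. The groups did not overlap, and the log2 fold change was -1.50 ± 0.30 (edgeR FDR = 0.282). *Cd163* had 3.78, 3.72 and 3.6 CPM in wild-type littermates and 5.09, 5.10 and 4.69 CPM in *Nova1-/-* mice. All 3 knockouts were above all 3 wild-type mice, with a log2 fold change of 0.42 ± 0.13 (edgeR FDR = 0.522). These were the genes whose groups were apart, 1 of 8 higher and 1 of 8 lower, beside 6.7% and 6.8% of all genes tested. *Stab1* had 44.3, 47.9 and 50.3 CPM in wild-type littermates and 41.8, 44.7 and 31.9 CPM in *Nova1-/-* mice. For *Mrc1* the values were 56.2, 57.4 and 57.8 CPM and 46.9, 56.4 and 49.3 CPM. For *F13a1* they were 30.9, 30.6 and 25.6 CPM and 26.6, 28.7 and 24.9 CPM. The groups overlapped for these 3 genes, as they did for *Pf4*, *Lyve1* and *Ms4a7*. In *Pf4* the wild-type littermates had 5.66, 7.23 and 4.78 CPM and the *Nova1-/-* mice 3.98, 4.86 and 4.56 CPM. In *Lyve1* they had 8.17, 9.20 and 7.52 CPM and 8.03, 9.27 and 7.18 CPM. In *Ms4a7* they had 0.813, 1.09 and 0.637 CPM and 1.15, 0.679 and 0.634 CPM. The log2 fold changes of the 6 ran from -0.39 for *Pf4* to -0.01 for *Lyve1*.

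Whether the 2 knockouts changed these genes unequally was tested, as the log2 fold change in *Nova2-/-* minus that in *Nova1-/-* cortex, in 1 model of all 12 mice, which uses the same mice as the comparisons above. For *Stab1* the difference was 1.38 ± 0.25 on the log2 scale (edgeR FDR = 0.0152). For *F13a1* it was 1.38 ± 0.29 (edgeR FDR = 0.0281). For *Cd209f* it was 3.92 ± 0.80 (edgeR FDR = 0.0227). These 3 of 8 passed both thresholds, and none of the others was below an FDR of 0.05, beside 0.697% and 1.83% of all 16210 genes tested. At an unadjusted p below 0.05 there were 6 of 8, all in the positive direction, beside 18.2% of all genes. With at least 10 counts required in every mouse, *Stab1* and *F13a1* passed both thresholds and 5 were below that unadjusted p. The median difference over the 8 was 1.31, beside -0.01 over all genes. *Stab1* passed with each of the 12 mice left out in turn, with an edgeR FDR from 0.000236 to 0.0439. *F13a1* lost the call without *Nova2-/-* replicate 1 or 2, wild-type replicate 4 or 5, or any of the 3 *Nova1-/-* mice, where its edgeR FDR was 0.0597 to 0.082. *Cd209f* lost it without *Nova2-/-* replicate 1 or 2, wild-type replicate 5 or 6, or *Nova1-/-* replicate 2 or 3, where its edgeR FDR was 0.0509 to 0.0703. With wild-type replicate 3 left out, 6 of the 8 passed both thresholds, and 315 genes in all did in place of 113.

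The wild-type mice of both sets of litters were compared with each other. Those of the *Nova2* litters enter both this comparison and that of *Nova2-/-* cortex. The libraries of both sets also differed. Values that were not whole were at most 11.7% in any mouse of the *Nova2* litters and at least 18.6% in any of the *Nova1* litters. Spearman correlations among wild-type mice were 0.971 to 0.982 in the former and 0.991 to 0.992 in the latter. Differences between the mice could not be told apart from differences between the sets of libraries, whose part was not tested. All 8 border macrophage genes had a positive log2 fold change in the *Nova1* litters, with a median of 0.90 beside -0.00185 over all genes tested. *Stab1* (1.16 ± 0.18, edgeR FDR = 0.0222) and *Cd209f* (4.13 ± 0.69, edgeR FDR = 0.0246) passed both thresholds, as did 0.647% of all 15918 genes. They were also the 2 of 8 below an FDR of 0.05 at any fold, beside 3.03% of all genes, and 5 of 8 were below an unadjusted p of 0.05, beside 21.1%. *Cd209f* passed the filter on low counts through the mice of the *Nova1* litters alone. With at least 10 counts required in every mouse, *Stab1* alone passed both thresholds and 4 were below an unadjusted p of 0.05. The groups were apart, with the *Nova1* litters higher, for 5 of 8 (*Mrc1*, *Stab1*, *Cd209f*, *Pf4* and *F13a1*) and lower for none, beside 13.6% and 13.8% of all genes. Set side by side, the mean of *Mrc1* was 27.9 ± 15.0 CPM (SD, n = 3) in wild-type mice of the *Nova2* litters, 60.3 ± 6.47 CPM (SD, n = 3) in *Nova2-/-* mice, 57.1 ± 0.792 CPM (SD, n = 3) in wild-type mice of the *Nova1* litters and 50.9 ± 4.90 CPM (SD, n = 3) in *Nova1-/-* mice. For *Stab1* the same means were 21.3 ± 5.96 CPM (SD, n = 3), 46.3 ± 7.39 CPM (SD, n = 3), 47.5 ± 3.05 CPM (SD, n = 3) and 39.5 ± 6.72 CPM (SD, n = 3). For both genes 1 group of wild-type mice stood below the other 3 groups. Without wild-type replicate 3 of the *Nova2* litters 7 of the 8 passed both thresholds in this comparison, and 459 genes in all did in place of 103. Without its replicate 2 only *Cd209f* did. Without its replicate 1, or without replicate 4, 5 or 6 of the *Nova1* litters, 0 did by the same edgeR test. In each of those 4 fits 5 were at an unadjusted p below 0.05, with the share over all genes again not counted.

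The level of the meninges in the dissected tissue was followed with 14 genes of meningeal fibroblasts, the cells beside which most border macrophages lie. These summed to 198, 266 and 503 CPM in wild-type mice from the *Nova2* litters and 878, 804 and 1000.3 CPM in *Nova2-/-* mice. In the *Nova1* litters they summed to 828, 720.0 and 918 CPM in wild-type mice and 674, 745 and 617 CPM in *Nova1-/-* mice. The 3 wild-type mice of the *Nova2* litters were the lowest of all 12, and none of the 14 genes was at 0 in any group. The 8 border macrophage genes summed to 50.8, 70.3 and 111 CPM in those wild-type mice, 179, 173 and 159 in *Nova2-/-* mice, 151, 159 and 152 in wild-type mice of the *Nova1* litters and 134, 150.2 and 124 in *Nova1-/-* mice. The same 3 mice were again the lowest, and replicate 3 the highest among them for 7 of 8 border macrophage genes and for 14 of 14 meningeal genes. In *Nova2-/-* cortex 14 of 14 meningeal genes had a positive log2 fold change, with a median of 1.33. Of these *Col1a1*, *Crabp2*, *Dcn* and *Ogn* rose past both thresholds, beside 0.261% of all genes tested. At an unadjusted p below 0.05 there were 12 of 14, beside 19.2%, and 11 of 14 had every knockout above every littermate, beside 12.4%. All 14 were negative in *Nova1-/-* cortex, with a median of -0.29 and 0 called by edgeR, with 7 at an unadjusted p below 0.05, beside 7.44% of all genes. Between the wild-type cortices all 14 were higher in the *Nova1* litters, with a median of 1.08 and 3 past both thresholds, beside 0.647% of all genes. For the difference between the knockouts' changes the median was 1.57 with 8 past both, beside 0.697%. The part of the meningeal tissue in the levels of border macrophage genes was not tested.

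The medians of vessel markers were smaller. In *Nova2-/-* cortex the median log2 fold change was 0.60 for 7 genes of mural cells and 0.27 for 10 of endothelium, where *Kdr* (0.78) and *Slc2a1* (0.57) of endothelium and *Abcc9* (0.55) of mural cells were below an FDR of 0.05. Higher at an unadjusted p below 0.05 were 5 of 7 and 5 of 10, beside 19.2% of all genes either way. Every knockout was above every littermate for 6 of 7 and 4 of 10, beside 12.4%. The endothelial sum was 341 to 363 CPM in *Nova2-/-* mice and 228 to 294 CPM in the other mice. In *Nova1-/-* cortex the same medians were 0.00126 and -0.10, with 0 below an FDR of 0.05 by edgeR and 1 and 3 at an unadjusted p below 0.05, beside 7.44% of all genes. The 10 neuronal genes had, in *Nova2-/-* cortex, a median of -0.10. The 7 choroid plexus genes had 0.35, but their sum ran from 112 to 1547 CPM within the *Nova2-/-* group alone, and the 10 erythroid genes, at 243 to 732 CPM over the 12 mice, had 0.26.

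Expressed against the microglia genes of the same mouse, the border macrophage sum was 33.0, 49.7 and 75.0% of the microglia sum in wild-type mice from the *Nova2* litters and 97.8, 101 and 102% in *Nova2-/-* mice. This is a ratio of sums of genes and not of cells, since border macrophages also express microglia genes such as *Csf1r*. In the *Nova1* litters it was 81.3, 88.1 and 86.3% in wild-type and 76.7, 86.1 and 78.1% in *Nova1-/-* mice. The *Nova2-/-* mice were above all other mice in this ratio and their 3 wild-type littermates below all other mice. The microglia sum itself was 154, 141 and 148 CPM in wild-type mice from the *Nova2* litters and 183, 172 and 155 in *Nova2-/-* mice. It was 186, 181 and 176 in wild-type mice of the *Nova1* litters and 175, 175 and 158 in *Nova1-/-* mice. In this sum too the 3 wild-type mice of the *Nova2* litters were below all other mice. Within the *Nova2* litters the microglia sum thus ran from 141 to 183 CPM, and the border macrophage sum from 50.8 to 179 CPM.

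**Figure D3:**
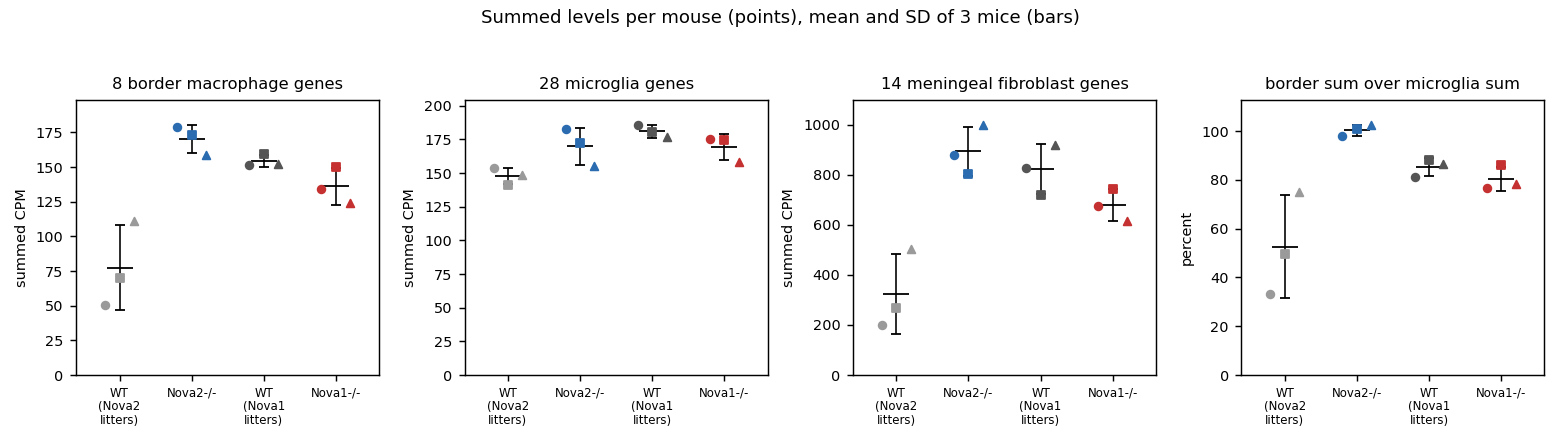
Summed CPM per mouse of the 8 border macrophage genes, the 28 microglia genes and 14 meningeal fibroblast genes, and the border macrophage sum in percent of the microglia sum, with mice as points and the mean and SD of 3 mice as bars. The 3 wild-type mice of the *Nova2* litters lie lowest in the border macrophage and meningeal panels, between 50.8 and 111 CPM and between 198 and 503 CPM. They also lie lowest in the microglia panel, between 141 and 154 CPM, by a narrow gap to the next mouse at 155 CPM.

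Among the 28 microglia genes, none passed both thresholds in *Nova2-/-* cortex or was below an FDR of 0.05 at any fold, by edgeR. At an unadjusted p below 0.05 there were 2, *Csf1r* and *Fcrls*, both higher, beside 19.2% of all genes. DESeq2's Wald test put 2 below an adjusted p of 0.05, as did edgeR's model of all 12 mice, and edgeR's exact test 1, none of them at a fold change of 2 or more. Over all genes these settings put 832, 1334 and 621 below it, in place of 166. Without wild-type replicate 3 there were 7 microglia genes at an unadjusted p below 0.05 and 1 (*Csf1r*) below an FDR of 0.05, where 1433 genes in all were below that FDR. Without any other single mouse there were 2 and 0. At the unadjusted p, the share over all genes in these fits was not counted. The test covered 26 of the 28, since *P2ry13*, at 2 to 9 counts in these mice, and *Cd14*, at 4 to 9, were below the filter on low counts. The median log2 fold change of the 26 was 0.15, from -0.35 to 0.57, beside 0.01 over all genes, and 17 were positive. All 3 knockouts were above all 3 wild-type mice for 4 of the 26 (*Csf1r*, *Tmem119*, *Fcrls* and *Cd53*) and below for none, beside 12.4% and 14% of all genes.

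Of the receptors through which neurons and glia signal to microglia, *Csf1r* had 23.1, 20.4 and 26.8 CPM in wild-type littermates and 35.1, 36 and 32.9 CPM in *Nova2-/-* mice. The groups were well apart, and the log2 fold change was 0.57 ± 0.12, a 1.49-fold difference (edgeR FDR = 0.0635). *Csf1r* is expressed by border macrophages as well as microglia. *Cx3cr1*, the receptor for the neuronal chemokine fractalkine, had 8.20, 7.35 and 5.36 CPM in wild-type littermates and 8.49, 8.42 and 7.94 CPM in *Nova2-/-* mice. The groups overlapped, and its log2 fold change was 0.27 ± 0.17. *P2ry12*, the ADP receptor that guides microglial processes, had 13.2, 11.8 and 5.19 CPM in wild-type littermates and 11.3, 9.36 and 7.94 CPM in *Nova2-/-* mice. Here wild-type replicate 3 was the lowest of the 6 mice and replicates 1 and 2 the highest, and the log2 fold change was -0.06 ± 0.31. *P2ry12* lies within *Med12l*, whose reads could not be told apart where the counting of strands was not stated. *Tmem119*, a surface protein of resident microglia, had 1.51, 1.15 and 1.51 CPM in wild-type littermates and 2.09, 1.70 and 2.17 CPM in *Nova2-/-* mice. The groups did not overlap, with a log2 fold change of 0.52 ± 0.25 (edgeR FDR = 0.306). *Fcrls*, an Fc receptor-like scavenger protein of microglia, had 16.3, 12.1 and 12.2 CPM in wild-type littermates and 20.1, 18.2 and 18.5 CPM in *Nova2-/-* mice. Every knockout was above every littermate, with a log2 fold change of 0.50 ± 0.14 (edgeR FDR = 0.12).

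The phagocytic and complement genes showed no such separation. *Aif1*, which encodes the microglial stain IBA1, had 6.73, 4.58 and 1.57 CPM in wild-type littermates and 6.54, 3.67 and 2.26 CPM in *Nova2-/-* mice. Both groups were spread over a several-fold range, and the log2 fold change of -0.02 ± 0.52 had the largest standard error of the 26. *Trem2*, a lipid-sensing receptor, had 1.74, 2.35 and 1.37 CPM in wild-type littermates and 1.69, 1.84 and 1.69 CPM in *Nova2-/-* mice. Its adaptor *Tyrobp* had 4.99, 4.82 and 7.20 CPM in wild-type littermates and 7.38, 6.54 and 4.70 CPM in *Nova2-/-* mice. Both genes overlapped between the groups, with log2 fold changes of -0.04 ± 0.27 and 0.13 ± 0.23. The chains of C1q, which tags synapses for removal, are encoded side by side on chromosome 4. *C1qa* had 5.94, 6.33 and 7.90 CPM in wild-type littermates and 7.96, 6.05 and 5.72 CPM in *Nova2-/-* mice. *C1qb* had 4.08, 4.70 and 7.47 CPM and 5.11, 5.20 and 4.53 CPM in the same order. *C1qc* had 5.66, 5.18 and 9.04 CPM and 7.52, 6.59 and 5.24 CPM. For *C1qb* and *C1qc* wild-type replicate 3 was the highest of the 6 mice, the log2 fold changes being -0.02 ± 0.19, -0.13 ± 0.24 and -0.04 ± 0.24 in the order of the letters.

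The transcription factor genes were low. *Spi1*, which encodes PU.1, had 0.951, 0.784 and 0.904 CPM in wild-type littermates and 1.20, 1.12 and 0.799 CPM in *Nova2-/-* mice (log2 fold change 0.24 ± 0.31). *Irf8*, which acts with PU.1, had 2.02, 1.63 and 1.64 CPM in wild-type littermates and 2.05, 2.15 and 1.82 CPM in *Nova2-/-* mice (log2 fold change 0.19 ± 0.23). Both overlapped between the groups. The remaining tested microglia genes, among them *Itgam* and *Ptprc* (the antigens CD11b and CD45), the lysosomal *Cd68* and *Ctss*, the Fc receptor genes *Fcer1g* and *Fcgr3*, and *Gpr34*, which overlaps *Cask*, lay between -0.35 for *Ly86*, a partner of a Toll-like receptor family protein, and 0.50 for *Fcer1g*.

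The wild-type littermates of *Nova2-/-* mice did not vary as 1 block in these genes. Replicate 3 was the highest of the 3 for 12 of 28 microglia genes and the lowest for 11, replicate 1 the highest for 9 and the lowest for 6, and replicate 2 the highest for 7 and the lowest for 11. In replicate 3 *Aif1*, *P2ry12*, *Itgam* and *Cx3cr1* were low while *C1qb*, *C1qc*, *Cd68*, *Fcgr3* and *Mpeg1* were high. The highest of the 3 mice was over the lowest by a median of 1.70-fold across the 28 genes, and by over 2-fold for 6 of them. The same median was 1.39-fold in *Nova2-/-* mice, 1.24-fold in wild-type mice of the *Nova1* litters and 1.24-fold in *Nova1-/-* mice.

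**Figure D4:**
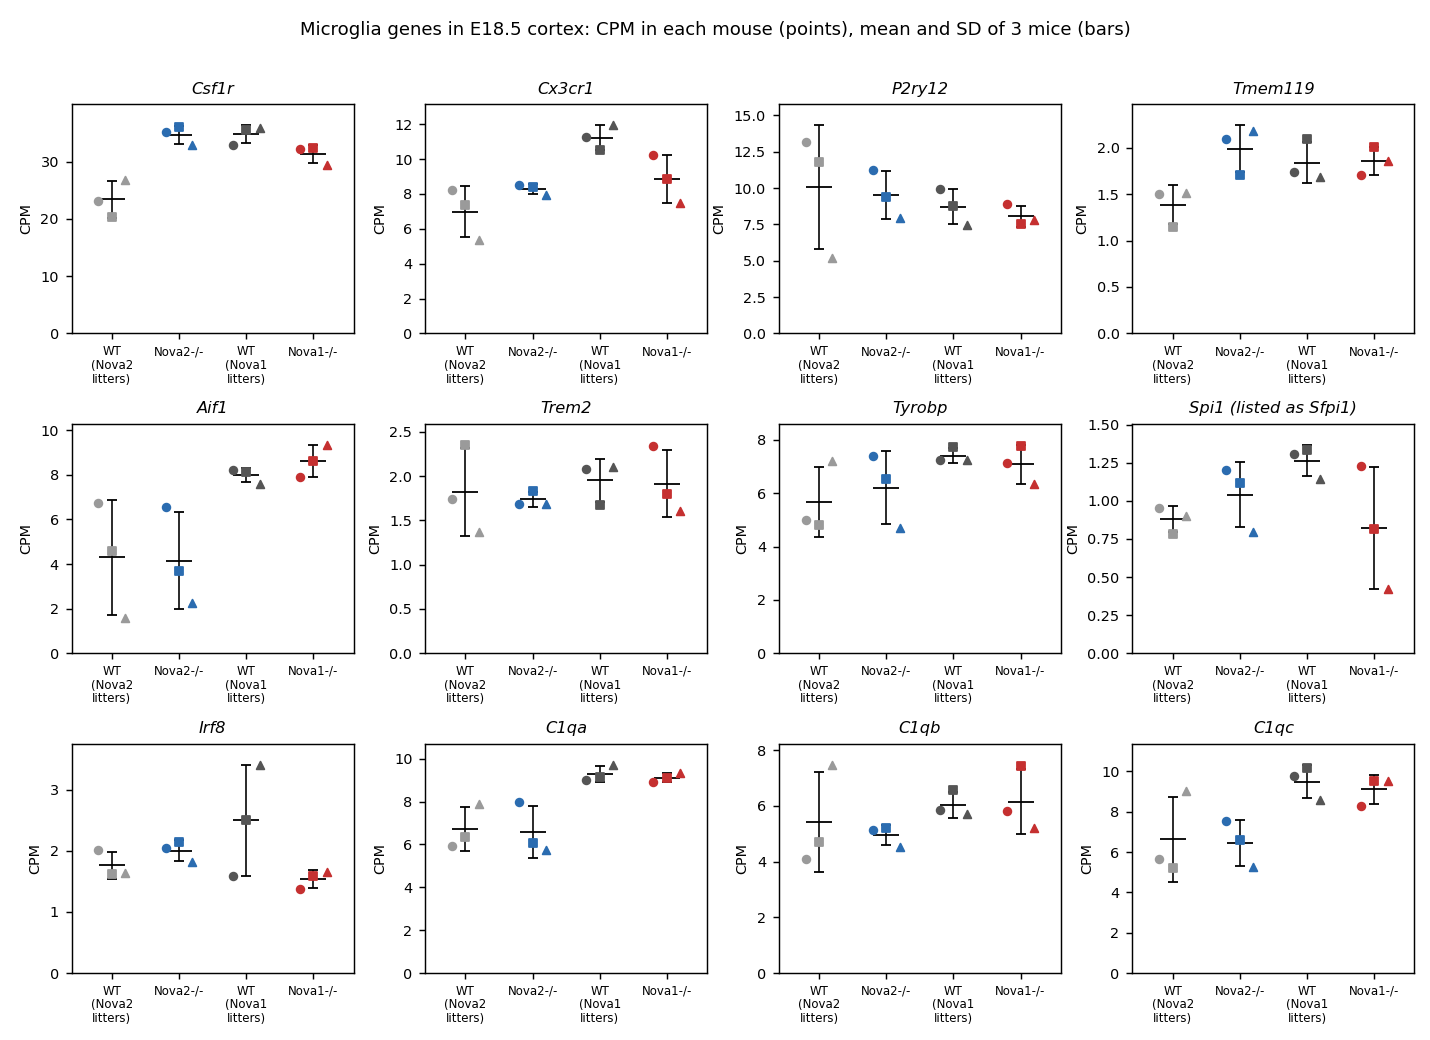
CPM of 12 microglia genes in each mouse (points; circle, square and triangle are the replicates in the order of their numbers), with the mean and SD of 3 mice (bars), in the 4 groups. *Csf1r* and *Tmem119* are higher in every *Nova2-/-* mouse than in every wild-type littermate, whereas *Aif1*, *P2ry12*, *Trem2* and the C1q genes overlap.

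The *Nova1-/-* cortex gave a like count: none of the 27 microglia genes tested passed an FDR of 0.05 at any fold by edgeR, and DESeq2 and edgeR's exact test also called 0. At an unadjusted p below 0.05 there were 2, *Cx3cr1* and *Irf8*, both lower, beside 7.44% of all genes. The median log2 fold change was -0.06, from -0.71 to 0.36, beside 0.00181 over all genes. *Cx3cr1* had 11.2, 10.5 and 11.9 CPM in wild-type littermates and 10.2, 8.87 and 7.48 CPM in *Nova1-/-* mice. The groups were apart by a narrow gap, with a log2 fold change of -0.34 ± 0.12 (edgeR FDR = 0.59). *Irf8* had 1.59, 2.51 and 3.41 CPM in wild-type littermates and 1.38, 1.60 and 1.65 CPM in *Nova1-/-* mice. Wild-type replicate 4 lay within the knockouts, and the log2 fold change was -0.71 ± 0.27 (edgeR FDR = 0.612). *Spi1* had 1.31, 1.34 and 1.15 CPM in wild-type littermates and 1.23, 0.815 and 0.422 CPM in *Nova1-/-* mice, of which replicate 3 was the lowest. *Csf1r* had 33.0, 35.4 and 35.9 CPM in wild-type littermates and 32.2, 32.3 and 29.5 CPM in *Nova1-/-* mice, a log2 fold change of -0.15 ± 0.07. The knockouts were all just below the wild-type mice. Groups were apart for *Cx3cr1* and *Csf1r*, which were lower, and for *Siglech*, a sialic acid-binding lectin of microglia, which was higher (0.36 ± 0.20): 2 and 1 of 27, beside 6.8% and 6.7% of all genes. *Aif1* had 8.20, 8.15 and 7.61 CPM in wild-type littermates and 7.92, 8.63 and 9.34 CPM in *Nova1-/-* mice. *C1qa* had 9.02, 9.15 and 9.71 CPM in wild-type littermates and 8.92, 9.10 and 9.34 CPM in *Nova1-/-* mice. In both genes the groups overlapped and all 6 mice lay close together.

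Of the remaining named genes, *P2ry12* had 9.90, 8.78 and 7.48 CPM in wild-type littermates and 8.88, 7.51 and 7.82 CPM in *Nova1-/-* mice. *Tmem119* had 1.73, 2.09 and 1.69 CPM in the former and 1.71, 2.0 and 1.86 CPM in the latter. *Trem2* had 2.09, 1.67 and 2.10 CPM and 2.34, 1.80 and 1.61 CPM. These 3 overlapped between the groups, with log2 fold changes of -0.11 ± 0.13, 0.02 ± 0.20 and -0.03 ± 0.22. *Tyrobp* had 7.25, 7.73 and 7.26 CPM in wild-type littermates and 7.14, 7.78 and 6.34 CPM in *Nova1-/-* mice. *C1qb* had 5.83, 6.56 and 5.70 CPM in the former and 5.80, 7.44 and 5.20 CPM in the latter. *C1qc* had 9.76, 10.2 and 8.57 CPM and 8.29, 9.51 and 9.51 CPM. These also overlapped, with log2 fold changes of -0.06 ± 0.12, 0.04 ± 0.15 and -0.06 ± 0.11.

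For the difference between the knockouts' changes, 1 of 27 microglia genes was below an FDR of 0.05 and none of them had a called difference of 1 or more. This was *Csf1r*, at 0.71 ± 0.14 on the log2 scale (edgeR FDR = 0.0218). Its edgeR FDR was above 0.05 without *Nova2-/-* replicate 1 or 2, wild-type replicate 5 or 6, or *Nova1-/-* replicate 3, and ran from 0.00065 to 0.0703 over the 12 fits. At an unadjusted p below 0.05 there were 4 of 27, *Csf1r*, *Fcrls* (0.66), *Cx3cr1* (0.60) and *Irf8* (0.89), all positive, beside 18.2% of all genes. The median difference over the 27 was 0.14.

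Between the wild-type cortices, *Csf1r* was also the 1 of 27 microglia genes below an FDR of 0.05, higher in the *Nova1* litters by 0.58 ± 0.12 on the log2 scale (edgeR FDR = 0.0392). This edgeR FDR was 0.000335 without wild-type replicate 3 of the *Nova2* litters and 0.107 to 0.174 without any other single mouse. The median over the 27 was 0.28, 23 were positive and 7 were at an unadjusted p below 0.05, all higher in the *Nova1* litters, beside 21.1% of all genes. Without wild-type replicate 3 of the *Nova2* litters there were 9 of 27 below an FDR of 0.05, where 3561 genes in all were in place of 483, and 13 at an unadjusted p below 0.05. Without any other single mouse there were 0 below an FDR of 0.05 by edgeR, and 3 to 6 at an unadjusted p below 0.05, the 3 without replicate 2 of the *Nova2* litters or replicate 5 of the *Nova1* litters. Again the share over all genes at the unadjusted p was not counted in the fits with a mouse left out. The groups were apart for 9 genes that were higher in the *Nova1* litters (*Csf1r*, *Cx3cr1*, *Aif1*, *Tmem119*, *Tyrobp*, *C1qa*, *Spi1*, *Ctss* and *Fcer1g*) and for 1 that was lower (*Laptm5*, a lysosomal membrane protein of leukocytes), beside 13.6% and 13.8% of all genes. *Aif1*, at 6.73, 4.58 and 1.57 CPM in the *Nova2* litters and 8.20, 8.15 and 7.61 CPM in the *Nova1* litters, differed most (0.92 ± 0.40, edgeR FDR = 0.223). *C1qa*, at 5.94, 6.33 and 7.90 and 9.02, 9.15 and 9.71 CPM, had 0.47 ± 0.15 (edgeR FDR = 0.121).

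**Figure D5:**
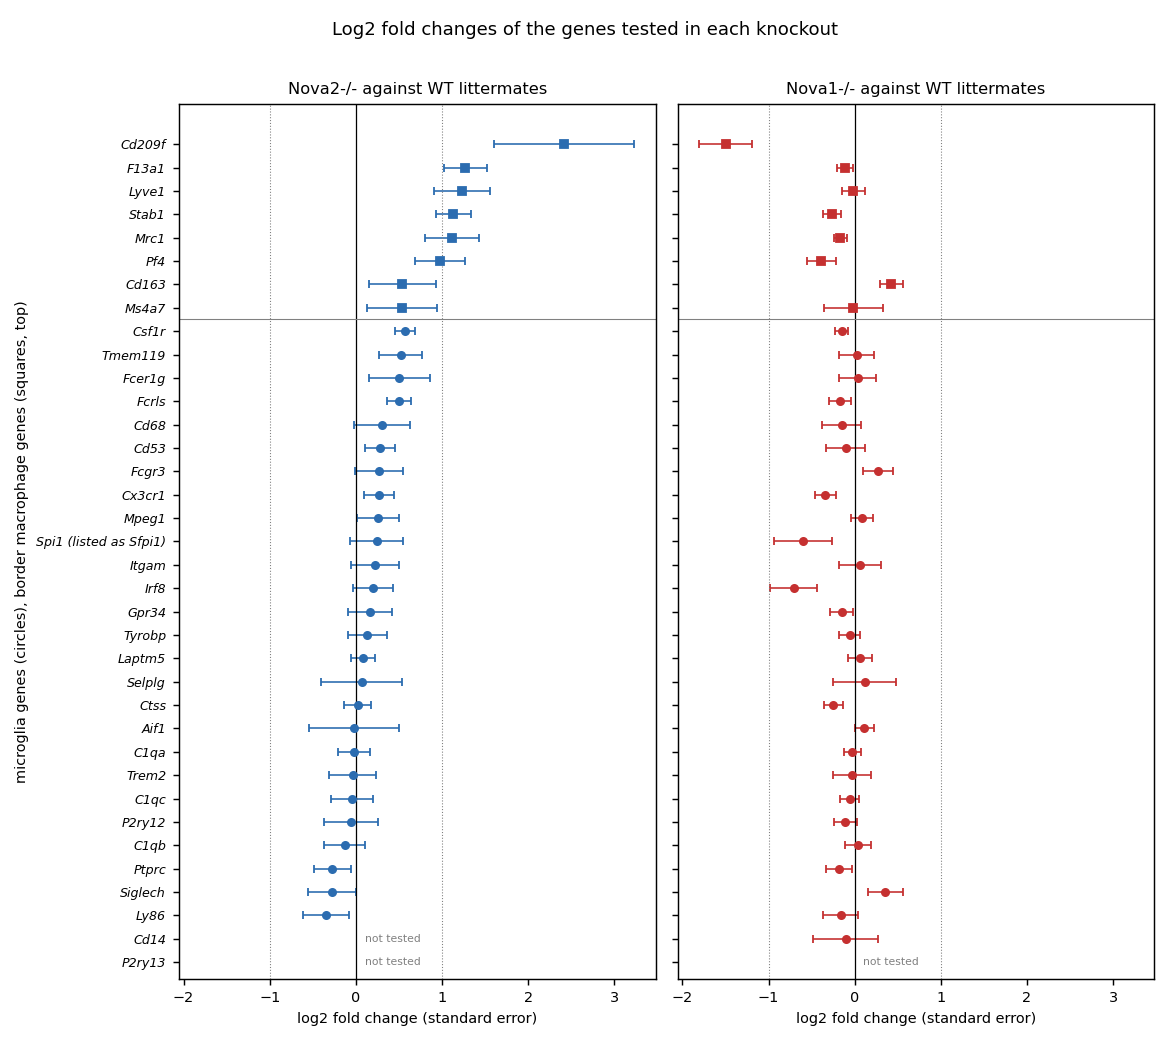
Log2 fold changes with standard errors of the genes tested, 34 of 36 in *Nova2-/-* (left) and 35 of 36 in *Nova1-/-* cortex (right), each against its wild-type littermates, with genes below the filter written as not tested, microglia genes as circles and border macrophage genes as squares above the line. Dotted lines mark a log2 fold change of 1 in either direction. All 8 squares lie right of 0 in *Nova2-/-* cortex and 7 of 8 left of it in *Nova1-/-* cortex, and the circles scatter around 0 in both.

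The ligands of these receptors were followed in the same mice. *Csf1*, a ligand of CSF1R, had 6.22, 6.87 and 8.94 CPM in wild-type littermates and 10.4, 11.1 and 9.10 CPM in *Nova2-/-* mice, where all 3 knockouts were above the littermates. Its log2 fold change was 0.48 ± 0.17 in *Nova2-/-* cortex (edgeR FDR = 0.192) and -0.25 ± 0.11 in *Nova1-/-* cortex. *Il34*, the other ligand of CSF1R, which neurons make, had 0.14 ± 0.27 in *Nova2-/-* and 0.29 ± 0.18 in *Nova1-/-* cortex. *Cx3cl1*, the fractalkine gene, had -0.33 ± 0.24 and -0.10 ± 0.12, and *Tgfb1*, a growth factor required for microglial identity, 0.70 ± 0.52 and -0.16 ± 0.31. None of the 4 was below an FDR of 0.05 in any of the comparisons.

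Of the list of 23 ligands, receptors and factors that regulate macrophages, to which these 4 belong, 21 were tested in *Nova2-/-* cortex. None was below an FDR of 0.05 by edgeR, 5 higher and 1 lower were at an unadjusted p below 0.05 (beside 19.2% of all genes), and the median log2 fold change was 0.14. In *Nova1-/-* cortex it was -0.10, again with 0 below an FDR of 0.05 and with 1 higher and 6 lower at an unadjusted p below 0.05, beside 7.44% of all genes. Between the wild-type cortices *C4b*, a complement component (1.33), *Itgav*, an integrin chain (0.74), and *Cd47*, which signals against phagocytosis (0.72), were below an FDR of 0.05 and higher in the *Nova1* litters. With 1 mouse left out, *C4b* and *Itgav* were below it in 1 of 6 fits, that without replicate 3 of the *Nova2* litters, and *Cd47* in 3 of 6, those without a wild-type mouse of the *Nova2* litters. *Tgfbr2*, a receptor for TGF-beta, had 0.68 in *Nova2-/-* and -0.29 in *Nova1-/-* cortex, a difference of 0.96 ± 0.21 (edgeR FDR = 0.033). With 1 mouse left out, the FDR of *Tgfbr2* was not below 0.05 in 10 of 12 fits.

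Further microglia genes were counted in the same way. Of 28 further ones found, 27 were tested in each comparison, and the median log2 fold change was 0.27 in *Nova2-/-* and 0.03 in *Nova1-/-* cortex, with 0 below an FDR of 0.05 by edgeR and 5 and 4 at an unadjusted p below 0.05, beside 19.2% and 7.44% of all genes. *Olfml3*, a secreted protein of microglia, had 4.28, 3.86 and 4.35 CPM in wild-type littermates and 6.80, 6.41 and 7.23 CPM in *Nova2-/-* mice, which were all higher. In the *Nova1* litters it had 3.43, 3.51 and 3.22 CPM in wild-type and 2.49, 3.23 and 1.99 CPM in *Nova1-/-* mice. It was the 1 gene of this list with a called difference between the knockouts' changes, 1.09 ± 0.24 (edgeR FDR = 0.0355), and lost the call in 10 of 12 fits with 1 mouse left out. Of 10 genes known from the activated microglia of developing axon tracts, 7 were tested in *Nova2-/-* cortex, with a median of -0.13. The list was mixed, with 3 positive and 4 negative log2 fold changes, from -1.75 to 1.14. None was below an FDR of 0.05 by edgeR, and 2 higher and 1 lower were at an unadjusted p below 0.05, beside 19.2% of all genes. *Gpnmb*, a glycoprotein of phagocytes, had 1.07, 0.844 and 1.41 CPM in wild-type littermates and 0.267, 0.358 and 0.355 CPM in *Nova2-/-* mice. All 3 knockouts were lower, in the direction opposite to the border macrophage genes (log2 fold change -1.75 ± 0.38, edgeR FDR = 0.0707). Its difference between the knockouts' changes was -1.96 ± 0.42 (edgeR FDR = 0.0316), not below 0.05 in 8 of 12 fits with 1 mouse left out. *Lgals1*, a galectin also made by fibroblasts, differed the other way, by 1.24 ± 0.24 (edgeR FDR = 0.0182), not below 0.05 in 3 of 12 such fits. *Lgals1* (0.99) and *Igf1* (1.0), a growth factor, were below an FDR of 0.05 between the wild-type cortices, and with 1 mouse left out in 1 of 6 fits, that without replicate 3 of the *Nova2* litters.

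Of 21 further border macrophage genes found, 10 were tested in *Nova2-/-* cortex, with a median log2 fold change of 1.1 and 0 below an FDR of 0.05 by edgeR, and 5 higher and 1 lower at an unadjusted p below 0.05, beside 19.2% of all genes. Their sum was 28.9, 37.7 and 67.3 CPM in wild-type littermates and 94.6, 99.1 and 73.1 CPM in *Nova2-/-* mice, which were all higher. The sum was 80.5, 78.5 and 81.6 CPM in wild-type mice of the *Nova1* litters and 75.3, 69.6 and 67.5 CPM in *Nova1-/-* mice. *Dab2*, an endocytic adaptor also expressed by fibroblasts, had a difference between the knockouts' changes of 1.34 ± 0.30 (edgeR FDR = 0.0375), not below 0.05 in 9 of 12 fits with 1 mouse left out. *Ccl12*, a chemokine, was below an FDR of 0.05 between the wild-type cortices (2.56) at under 1 CPM in every mouse, and with 1 mouse left out in 1 of 6 fits, that without replicate 3 of the *Nova2* litters. At so few reads it may have passed the filter on low counts through the *Nova1* litters alone, where it was higher.

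The genes of blood leukocytes had few reads. The 12 genes of monocytes and neutrophils summed to between 1.88 and 7.57 CPM, 9 genes of lymphocytes to between 0.493 and 2.23 CPM, and 4 genes of mast cells to between 0.634 and 7.55 CPM in the 12 mice. In *Nova2-/-* cortex 2, 0 and 1 genes of these lists were above the filter on low counts, and none was below an FDR of 0.05 by edgeR, with 0, 0 and 1 at an unadjusted p below 0.05. Of these lists, *Ngp*, a neutrophil granule gene, was below an FDR of 0.05 in 1 comparison, that of the wild-type cortices (2.43), at under 1 CPM in every mouse. It too may have passed the filter on low counts there through the *Nova1* litters alone, where it was higher. Finally, none of the 36 genes carried any of the 1991 alternative splicing events in the deposited table of events that depend on NOVA2. The same count was 0 of 14 meningeal, 0 of 10 endothelial and 1 of 10 neuronal genes, and 1 of the 23 ligands, receptors and factors. The share over all genes was not counted, so whether 0 of 36 lies below that share cannot be said. Whether events could be detected in genes with so few reads was not tested.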

How the data were processed

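Cortex of E18.5 mice of the CD1 background was sequenced by the authors after Trizol extraction and depletion of ribosomal RNA, as paired-end reads aligned with OLego. Their methods name mm10 as the genome and the submitters' processing notes mm9. The values deposited by the authors are expected counts per gene, summed from aligned reads and not always whole. The counting program, its annotation and its use of strand are not given in the sources used here. The deposited fold changes and adjusted p-values of the authors' own comparisons were not used, and neither were the inclusion differences of the table of splicing events, from which gene names alone were taken. The 6 midbrain and hindbrain samples were not analysed here.

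The labels number the wild-type samples 1 to 6 without naming their litters. Replicates 1 to 3 were taken as littermates of *Nova2-/-* mice and 4 to 6 as littermates of *Nova1-/-* mice, from the numbering (4 to 6 and *Nova1-/-* mice also gave midbrain and hindbrain samples) and the order of columns in each deposited table.

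The counts were rounded to whole numbers, filtered with filterByExpr, scaled by TMM and fitted with edgeR 4.0.16 (glmQLFit and glmQLFTest, R 4.3.3) on the 2 groups of a comparison, or on all 12 mice for the difference between the knockouts' changes, with Benjamini-Hochberg adjustment over all genes tested. A call needed an FDR under 0.05 together with a fold change of 2 or more either way. Each standard error was the fold change over the square root of the F statistic. CPM used the TMM-scaled libraries of the 12 mice, and CPM per kb the union of exons in the Gencode M1 annotation. No pair of columns was identical. The fits were tested on simulated counts. Alternatives tried were omitting the filter, requiring 10 or more counts in each mouse, upper-quartile and DESeq2 size factor scaling, DESeq2 1.42.0, edgeR's exact test, FDR thresholds at any fold, 1 model of all mice, a replicate block and each mouse left out. Tables and figures were made with Python 3.11.15, pandas 2.3.3, numpy 2.4.6 and matplotlib 3.10.9.

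The members and the lists of other genes were chosen by name with earlier results of these data known. Values per mouse were given for the 8 border macrophage genes, for microglia genes with an FDR below 0.05 in any comparison and for 12 microglia genes set by name (*Csf1r*, *Cx3cr1*, *P2ry12*, *Tmem119*, *Aif1*, *Trem2*, *Tyrobp*, *C1qa*, *C1qb*, *C1qc*, *Spi1* and *Irf8*). From the other lists the rule named *Csf1*, *Il34*, *Cx3cl1* and *Tgfb1*, and the genes with an FDR below 0.05, at most 6 per list and comparison. The remaining genes were named after their values were seen.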

Additional observations from a re-analysis of the deposited data

Results flagged for a closer look

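For 9 genes the log2 fold change in *Nova2-/-* cortex differed from that in *Nova1-/-* cortex, by the test of the difference itself in 1 model of 12 mice (edgeR's quasi-likelihood method). Among the members the differences were 3.92 for *Cd209f* (edgeR FDR = 0.0227), 1.38 for *Stab1* (edgeR FDR = 0.0152), 1.38 for *F13a1* (edgeR FDR = 0.0281) and 0.71 for *Csf1r* (edgeR FDR = 0.0218). Among the other macrophage genes they were 1.34 for *Dab2* (edgeR FDR = 0.0375), 1.24 for *Lgals1* (edgeR FDR = 0.0182), 1.09 for *Olfml3* (edgeR FDR = 0.0355), 0.96 for *Tgfbr2* (edgeR FDR = 0.033) and -1.96 for *Gpnmb* (edgeR FDR = 0.0316). With 1 mouse left out at a time, the FDR was not below 0.05 in 0 of 12 fits for *Stab1*, 3 for *Lgals1*, 5 for *Csf1r*, 6 for *Cd209f*, 7 for *F13a1*, 8 for *Gpnmb*, 9 for *Dab2* and 10 for *Olfml3* and for *Tgfbr2*. *Gpnmb* was the 1 gene of the 9 with a negative difference. The 3 wild-type mice of the *Nova2* litters, the lowest of the 12 in summed border macrophage, meningeal, microglia and mural genes, enter each of these values.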

How the results depend on the processing

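In *Nova2-/-* cortex the count of border macrophage genes called, 1 of 8, became 2 with no filter on low counts, 3 by DESeq2, 5 by edgeR's exact test, 5 with all 12 mice in 1 model and 2 at an FDR below 0.1 at any fold, where the count of microglia genes was 1 and not 0. Leaving out 1 mouse at a time gave 0 to 5 border macrophage genes, and 5 without wild-type replicate 3. In *Nova1-/-* cortex the count stayed at 0 except by edgeR's exact test, which gave 1. Between the wild-type cortices, the count of 2 border macrophage genes became 4 with no filter, 1 with at least 10 counts in every sample, 4 by edgeR's exact test, 4 with all 12 mice in 1 model and 5 at an FDR below 0.1 at any fold, and 0 to 7 with 1 mouse left out. The 0 microglia genes there became 1 at an FDR below 0.05 and 2 below 0.1 at any fold, and 0 to 1 with 1 mouse left out (*Fcer1g*, without wild-type replicate 3, where 9 were below an FDR of 0.05 at any fold). For the difference between the knockouts' changes, the 3 border macrophage genes became 2 with at least 10 counts in every sample, *Stab1* and *F13a1*. They became 5 with no filter, 5 by DESeq2, 6 at an FDR below 0.1 at any fold, and 1 to 6 with 1 mouse left out. The 0 microglia genes became 1 at an FDR below 0.05 or 0.1 at any fold. The cause of these shifts was not tested, beside the wider thresholds and smaller groups themselves. Over all genes the 41 calls in *Nova2-/-* cortex became 67 with no filter, 129 by DESeq2, 170 by edgeR's exact test, 185 with all 12 mice in 1 model and 4 to 254 with 1 mouse left out. The 2 calls in *Nova1-/-* cortex became 4 by DESeq2, 10 by edgeR's exact test, 1 with at least 10 counts in every sample and 1 to 7 with 1 mouse left out. The 103 calls between the wild-type cortices became 221 by edgeR's exact test, 209 in 1 model of all mice and 3 to 459 with 1 mouse left out, and the 113 calls for the difference became 207 by DESeq2 and 59 to 315.

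Genes near a log2 fold change of 0 changed sign when 1 mouse was left out. In *Nova2-/-* cortex the values ran from -0.38 to 0.20 for *P2ry12*, -0.51 to 0.49 for *Aif1*, -0.20 to 0.17 for *Trem2*, -0.0901 to 0.31 for *Il34*, -0.18 to 0.12 for *C1qa*, -0.31 to 0.19 for *C1qb*, -0.18 to 0.26 for *C1qc* and -0.00976 to 0.35 for *Tyrobp*. In *Nova1-/-* cortex they ran from -0.12 to 0.0697 for *Lyve1* and -0.34 to 0.19 for *Ms4a7*, and for the difference from -0.23 to 0.69 for *Cd163*. None of these was below an FDR of 0.05. Among values of single genes and list medians, 104 fell short of the threshold with 1 mouse left out and 2 under other settings. In the same order, 15 and 36 newly passed it and 25 and 2 changed sign. List medians were judged by the pooled SD of the median between replicates, and 3 and 0 moved by that much or more. The other 399 and 461 kept their direction and side or, for list medians, moved by less.

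Whether the replicate numbers of the *Nova2* litters pair the mice is not known. The deviations of same-numbered mice from their group means correlated at 0.119, 0.0312 and 0.20, and those of differently numbered mice at -0.216 to 0.139. Deviations from a mean of so few mice offset each other, so these values cannot decide it. With the number as a replicate block, 55 genes were called in place of 41, the border macrophage count remained 1 (*Stab1*) and the microglia count 0, and *P2ry12* (0.0177) and *Aif1* (0.0424) changed sign near 0. The *Nova1* litters share no numbers across genotype, so no block could be fitted there. Depth limited *P2ry13* and *Cd14*, at 2 to 16 counts per mouse, and *Cd209f*, at 0 to 66.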
